A study of Mus musculus with 9 samples.

Results

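The glutathione transferases, glutathione peroxidases and peroxiredoxins are families of enzymes that conjugate glutathione to reactive compounds or reduce peroxides. They were taken here as every gene of the deposited array table whose annotated symbol began with Gst, Mgst, Gpx or Prdx followed by a class letter or member number, and whose probe set named that gene alone. The rule selects by name, and a gene with several such probe sets was represented by the brightest. It gave 34 genes of the 18193 measured, made up of 20 cytosolic and kappa transferases, 3 microsomal transferases, 8 glutathione peroxidases and 3 peroxiredoxins. The cells were macrophages grown from the bone marrow of C57BL6 mice aged 6 to 12 weeks, which were kept in L929-conditioned medium until the day before use and treated on day 6 in vitro. All 9 cultures received lipopolysaccharide (LPS, the outer-membrane molecule of Gram-negative bacteria) for 3 h at a concentration of 33 ng/mL. Then 3 were given sterile saline, 3 were given TMT OH (trimethyltin hydroxide) at 1.25 µM and 3 were given TET Br (triethyltin bromide) at 10 µM, each for 6 h. Since saline cells were primed as well, responses to LPS itself were not measured. TMT carries methyl groups on tin and TET carries ethyl groups, and the doses differed. The labels call the samples biological replicates without saying whether they came from separate mice, so each p-value reflects only how much these cultures varied, which may be technical.

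Cytosolic transferases are grouped by sequence into classes named alpha, mu, pi, theta, omega and zeta, and a kappa class is found in mitochondria and peroxisomes. They join glutathione to electrophiles, and the products are exported by ABCC transporters. Microsomal transferases are membrane enzymes, some of which also reduce lipid peroxides or make leukotriene C4. Glutathione peroxidases and peroxiredoxins remove hydrogen peroxide and lipid peroxides with electrons from glutathione or thioredoxin, and several glutathione peroxidases carry selenocysteine at the active site. In macrophages these enzymes meet the peroxides formed after the NADPH oxidase burst, and many of their genes are known targets of the transcription factor NRF2.

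Values are log2 signals as deposited, and differences between groups are log2 fold changes from limma with adjusted p-values over all 18193 genes. A gene passed at an adjusted p under 0.05. Signals of different probe sets do not rank mRNA amounts, so levels were compared only within a gene. A member was called bright where its mean over the 9 arrays reached the median over genes (6.82), which held for 16 members, and dim otherwise. No value used here marks array background, and 6 of the 18 dim members lay among the 3639 dimmest genes (means from 2.22 to 4.82). All 8 macrophage markers were bright. Their mean log2 signal was 12.50 to 12.55 in saline, 12.32 to 12.64 under TMT and 12.28 to 12.41 under TET, where it lay below saline on every array, with 4 markers lower and 1 higher. In contrast, 0 of 4 B cell, 0 of 3 erythroid and 0 of 4 dendritic markers were bright. Of T cell, granulocyte and stromal markers, 1 of 4, 2 of 6 and 2 of 5 were bright. The granulocyte list read 6.01 to 6.06 in saline, 5.66 to 5.84 under TMT and 5.73 to 5.92 under TET. Lists of other cell types read higher under TET than in saline without overlap: the B cell list went from 5.27 to 5.44 in saline to 5.67 to 5.80 (3 of 4 markers rose), the T cell list from 5.38 to 5.51 to 5.58 to 5.84 (2 of 4 rose) and the erythroid list from 5.31 to 5.49 to 5.67 to 5.86 (2 of 3 rose). The dendritic and stromal lists overlapped saline. Under TMT the T cell list read 5.21 to 5.29, below saline on every array (2 of 4 markers fell), while the B cell and erythroid lists overlapped saline. The part of these shifts in the results was not tested. Bulk signals cannot tell fewer cells of a type from less RNA per cell. The TET arrays spanned a narrower range, with interquartile ranges of 3.45 to 3.55 against 3.83 to 3.88 in saline and 3.78 to 3.86 under TMT. Under TET the median fold change was −0.19 over bright genes and 0.20 over dim genes, against 0.032 and 0.0048 under TMT. After cyclic loess between arrays the bright median under TET was 0.016. TET changes of members against saline are therefore given with their value on that scale where it ended the call. Calls of marker genes and of other genes outside the members were not repeated on that scale.

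Under TMT, 6 members rose (Gstt1, Gstt4, Gstm2, Gstt2, Gstm3 and Prdx2) and 6 fell (Mgst3, Gpx1, Gpx3, Gstm5, Gsto1 and Gstk1), and 22 did not pass. These 12 of 34 stood beside 27.8% of all genes called in that comparison, 14.3% higher and 13.4% lower, and the members' median fold change was −0.0081 against 0.012 over all genes. Among bright members 3 rose and 6 fell, where 24.1% of bright genes rose and 22.1% fell (46.2% in all). Among dim members 3 rose and 0 fell (3 at an unadjusted p under 0.05), where 4.62% of dim genes rose and 4.72% fell (9.33% in all). Under TET, 9 members rose and 12 fell, which made 21 of 34 beside 50.8% of all genes (27.4% higher and 23.4% lower). The members' median was 0.026 against 0.094 over all genes. Of the bright members 3 rose and 10 fell under TET, where 23.6% of bright genes rose and 41.3% fell (64.9% in all), and of the dim members 6 rose and 2 fell, where 31.2% of dim genes rose and 5.62% fell (36.8% in all). The groups compared did not overlap for 16 members under TMT (44.7% of all genes) and 22 under TET (58.7%). These shares are a description and say nothing particular of the families as a whole. The TMT and TET comparisons share the 3 saline arrays, so the values of the compounds are set side by side below.

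**Figure D1:**
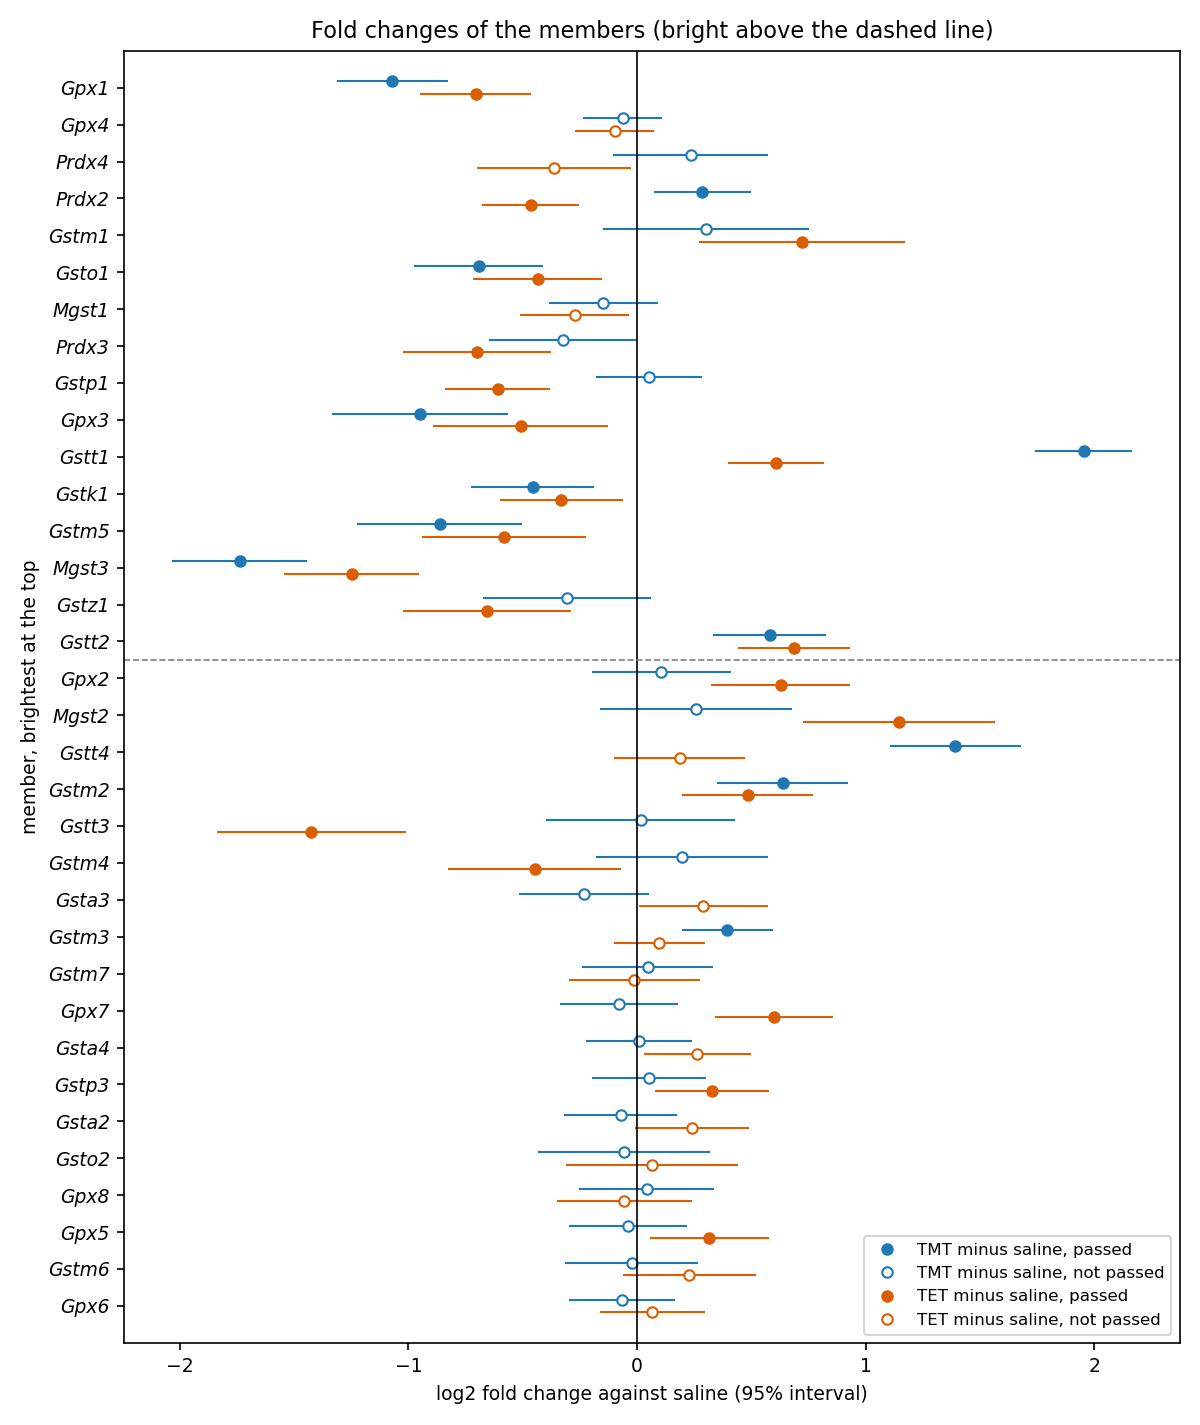
Log2 fold change of each of the 34 members against saline (x axis) with its 95% interval, in order of mean signal (y axis), for TMT (blue) and TET (orange); filled points passed at an adjusted p under 0.05. Gstt1 and Gstt4 stand farthest to the right under TMT, and Mgst3 under TMT and Gstt3 under TET farthest to the left.

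Of the theta transferases, which handle small halogenated compounds and peroxides, Gstt1 and Gstt4 gave the largest rises among the members under TMT. Under TET the largest rise among the members was that of Mgst2 and the largest fall that of the theta gene Gstt3. Mgst2, Gstt3 and Gstt4 were dim members. Gstt1 read 7.60, 7.48 and 7.69 on the saline arrays, 9.45, 9.51 and 9.67 under TMT and 8.13, 8.23 and 8.23 under TET. The 3 groups did not overlap, with TET between saline and TMT. Gstt1 rose 3.87-fold under TMT (log2 fold change 1.95, SE 0.09, adjusted p = 3.76e-07) and 1.52-fold under TET (0.61, SE 0.09, adjusted p = 0.000436). For Gstt4, a theta gene of little-studied function, the saline arrays read 5.77, 5.76 and 5.78, the TMT arrays 7.10, 7.38 and 7.02 and the TET arrays 6.07, 6.10 and 5.71. All TMT arrays lay above the rest, while the TET arrays overlapped saline. Gstt4 rose 2.62-fold under TMT (1.39, SE 0.13, adjusted p = 2.11e-05) and did not pass under TET (0.19, 95% interval −0.10 to 0.47, adjusted p = 0.25). Gstt2, at 6.31, 6.63 and 6.38 in saline, read 6.94, 7.17 and 6.95 under TMT and 7.19, 7.03 and 7.16 under TET. Both exposed groups lay above saline and overlapped each other. It rose 1.49-fold under TMT (0.58, SE 0.11, adjusted p = 0.0026) and 1.61-fold under TET (0.69, SE 0.11, adjusted p = 0.000528). Gstt3 read 6.42, 6.82 and 6.34 in saline, 6.33, 6.61 and 6.69 under TMT and 4.73, 5.20 and 5.38 under TET. Here the TMT arrays overlapped saline and the TET arrays lay below both. Gstt3 fell 2.69-fold under TET (−1.43, SE 0.19, adjusted p = 0.00013) and was at 0.016 under TMT (95% interval −0.40 to 0.43).

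These 4 theta genes are consecutive protein-coding genes on chromosome 10 in the order Gstt3, Gstt1, Gstt4, Gstt2 in the GRCm38.p6 annotation, between Ddt and Mif. Ddt, encoding a relative of the cytokine MIF, rose under TMT (0.59, SE 0.12, adjusted p = 0.00327) and was at −0.021 under TET. Mif was at 0.16 under TMT and 0.070 under TET and did not pass in either (adjusted p = 0.427 and 0.664). Ddt and Mif were looked up for their place after the theta values had been seen. The fold changes along the row were thus 0.59, 0.016, 1.95, 1.39, 0.58 and 0.16 under TMT, with the largest values at the inner pair. Under TET they were −0.021, −1.43, 0.61, 0.19, 0.69 and 0.070, with Gstt3 apart from its neighbours. To show the sequence before the starts of the pair that rose most under TMT and of the adjoining gene that did not, the 250 bases upstream of Gstt1 (chr10:75797732-75797981), Gstt4 (chr10:75822544-75822793) and Gstt3 (chr10:75781423-75781672, the first of its listed starts) are given 5′ to 3′ from RefSeq, GRCm38.p6. All 3 genes lie on the minus strand.
Gstt1: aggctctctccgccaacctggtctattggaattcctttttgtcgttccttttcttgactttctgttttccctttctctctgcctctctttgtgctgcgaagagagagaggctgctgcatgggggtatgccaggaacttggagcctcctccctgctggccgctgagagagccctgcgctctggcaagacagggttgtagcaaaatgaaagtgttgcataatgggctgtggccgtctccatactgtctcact
Gstt4: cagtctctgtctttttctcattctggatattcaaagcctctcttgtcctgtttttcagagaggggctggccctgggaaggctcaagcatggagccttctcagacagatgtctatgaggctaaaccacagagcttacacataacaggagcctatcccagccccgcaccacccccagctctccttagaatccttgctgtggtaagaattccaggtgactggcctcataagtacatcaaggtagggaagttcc
Gstt3: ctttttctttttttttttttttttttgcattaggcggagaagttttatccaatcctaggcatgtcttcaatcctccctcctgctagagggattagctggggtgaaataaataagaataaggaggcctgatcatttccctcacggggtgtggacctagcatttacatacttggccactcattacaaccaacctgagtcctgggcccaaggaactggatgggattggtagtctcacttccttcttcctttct
A search for the core of the antioxidant response element, through which NRF2 acts (letters TGACNNNGC), and for a pair of heat shock units (letters GAANNTTC), on both strands, found 0 matches in these windows, so no base is in capitals. The GC content was 52.8% for Gstt1, 50.4% for Gstt4 and 43.6% for Gstt3, against a median of 52.4% over all windows of the table. The absence of a match says only that these letters do not occur in these 250 bases.

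**Figure D2:**
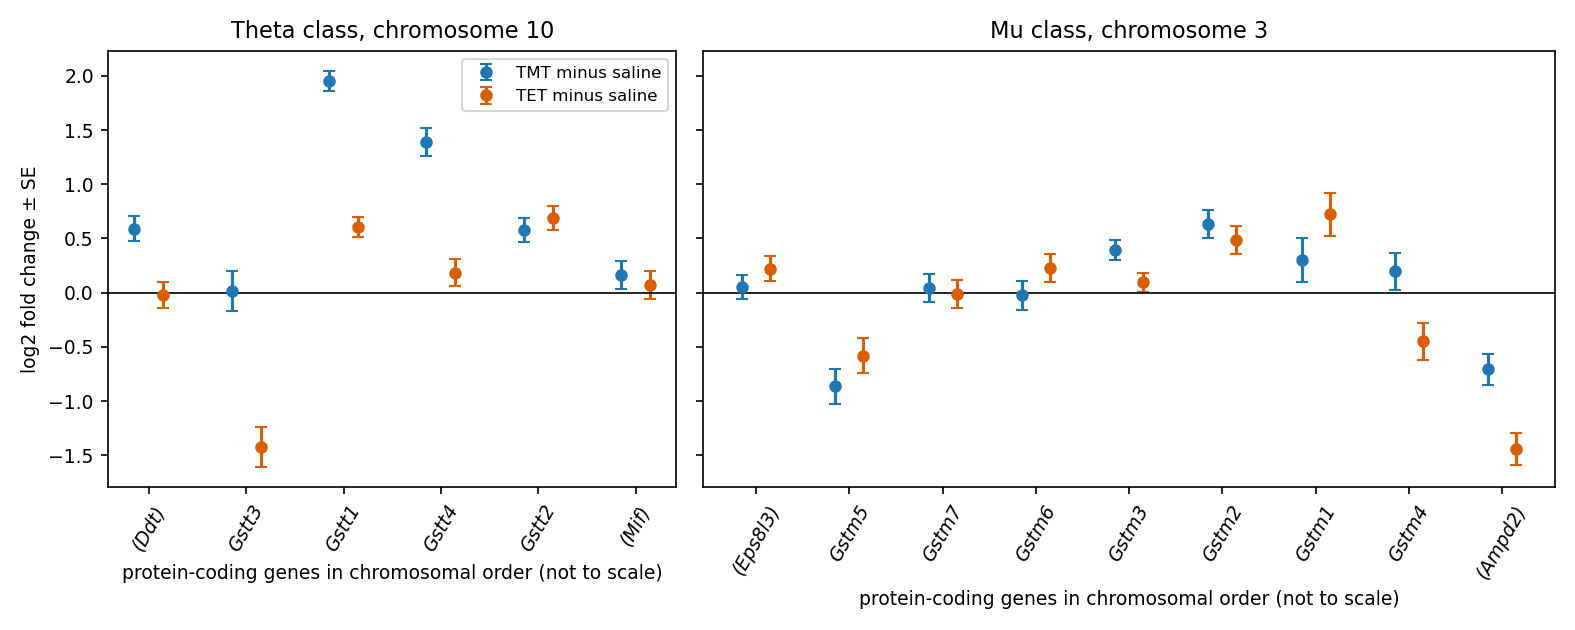
Log2 fold change against saline with its SE (y axis) for the theta genes of chromosome 10 and the mu genes of chromosome 3, in chromosomal order (x axis, not to scale), with the flanking genes in parentheses. Under TMT (blue) Gstt1 and Gstt4 stand above their neighbours, and under TET (orange) Gstt3 stands below its neighbours.

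Among the microsomal transferases, Mgst3, a membrane enzyme with transferase and peroxidase activity, gave the largest fall under TMT. Its saline arrays read 8.77, 8.76 and 8.79, its TMT arrays 7.04, 6.89 and 7.17 and its TET arrays 7.43, 7.83 and 7.32. Every exposed array lay below saline by more than the whole saline range, with TMT lowest. Mgst3 fell 3.34-fold under TMT (−1.74, SE 0.13, adjusted p = 6.11e-06) and 2.37-fold under TET (−1.25, SE 0.13, adjusted p = 3.19e-05). Mgst2, which can make leukotriene C4, read 6.18, 6.38 and 5.96 in saline, 6.46, 6.44 and 6.38 under TMT and 7.15, 7.01 and 7.80 under TET. The TET arrays lay above the rest. Mgst2 rose 2.21-fold under TET (1.14, SE 0.19, adjusted p = 0.000612) and did not pass under TMT (0.26, 95% interval −0.16 to 0.68, adjusted p = 0.397). As a dim member it stands beside a median of 0.20 over all dim genes under TET. Mgst1, the classical liver microsomal enzyme, did not pass under TMT (−0.15, adjusted p = 0.397) or TET (−0.27, adjusted p = 0.0563).

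Of the 3 bright glutathione peroxidases, Gpx1 and Gpx3 fell against saline, the latter under TET only in some settings, and Gpx4 did not pass in its brightest probe set. Gpx1, encoding the main cytosolic enzyme and a selenoprotein, read 12.66, 12.57 and 12.60 in saline, 11.52, 11.36 and 11.75 under TMT and 11.80, 11.95 and 11.96 under TET. The 3 groups did not overlap, and TMT was lowest. Gpx1 fell 2.1-fold under TMT (−1.07, SE 0.11, adjusted p = 4.01e-05) and 1.63-fold under TET (−0.71, SE 0.11, adjusted p = 0.0004). For Gpx3, the secreted plasma enzyme, the saline arrays read 9.02, 9.09 and 8.95, the TMT arrays 8.11, 8.03 and 8.06 and the TET arrays 8.44, 8.95 and 8.13. TMT lay below saline on every array, while TET replicate 2 lay within the saline range. Gpx3 fell 1.93-fold under TMT (−0.95, SE 0.17, adjusted p = 0.00192). Its fall under TET (−0.51, SE 0.17, adjusted p = 0.0313) was lost after cyclic loess (−0.21, adjusted p = 0.365), after repeated quantile normalization (−0.29, adjusted p = 0.197), in the fit of these 6 arrays alone (adjusted p = 0.0653) and without any 1 of the 3 saline arrays, TET replicate 1 or TET replicate 3 (−0.54 to −0.32, adjusted p from 0.0581 to 0.0915).

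Gpx4, which reduces phospholipid peroxides and guards against ferroptosis, did not pass in its brightest probe set (−0.062 under TMT and −0.098 under TET, adjusted p = 0.654 and 0.312). That probe set is one that Affymetrix marks as open to binding related transcripts. Of the dim glutathione peroxidases, Gpx2, best known from the gut, rose 1.55-fold under TET (0.63, SE 0.14, adjusted p = 0.00341), with TET arrays at 6.84, 7.12 and 7.25 above saline arrays at 6.63, 6.39 and 6.32. Gpx7, an enzyme of the endoplasmic reticulum, rose 1.52-fold under TET (0.60, SE 0.12, adjusted p = 0.00168), from 5.18, 5.05 and 5.05 in saline to 5.63, 5.84 and 5.60. Gpx5, known from the epididymis, passed under TET at 0.32 (adjusted p = 0.0444) at levels of 3.62 to 4.08, among the dimmest genes. That call was lost after cyclic loess (0.17, adjusted p = 0.288) and without any 1 of the saline arrays, TET replicate 1 or TET replicate 3 (0.27 to 0.35, adjusted p from 0.0648 to 0.119). These TET rises of dim members stand beside a median of 0.20 over all dim genes. Under TMT Gpx2, Gpx7 and Gpx5 were at 0.11, −0.078 and −0.039 and did not pass. Gpx6 and Gpx8 passed in neither comparison with saline.

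To show the upstream sequence of the members with the largest falls under TMT, the 250 bases before Mgst3 (chr1:167393842-167394091, minus strand) and Gpx1 (chr9:108338830-108339079, plus strand) are given 5′ to 3′ from RefSeq, GRCm38.p6.
Mgst3: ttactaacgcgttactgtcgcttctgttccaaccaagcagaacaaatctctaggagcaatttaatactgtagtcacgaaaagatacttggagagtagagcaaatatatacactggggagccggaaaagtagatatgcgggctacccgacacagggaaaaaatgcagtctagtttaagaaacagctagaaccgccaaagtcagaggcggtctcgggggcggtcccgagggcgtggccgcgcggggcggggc
Gpx1: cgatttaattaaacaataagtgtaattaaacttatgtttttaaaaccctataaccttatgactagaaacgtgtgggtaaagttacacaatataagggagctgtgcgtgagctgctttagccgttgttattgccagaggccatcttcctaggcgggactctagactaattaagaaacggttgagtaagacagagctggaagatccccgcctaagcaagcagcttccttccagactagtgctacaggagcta
Neither window held a match to the antioxidant response or heat shock letters. The GC content was 51.6% for Mgst3 and 42% for Gpx1. Mgst3 and Gpx1 held 17 and 7 CG dinucleotides in these 250 bases, Gstt1 held 6, Gstt4 1 and Gstt3 2. CG dinucleotides were not counted over all windows, so nothing is read from these counts.

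The 7 mu transferases, which form a row of consecutive protein-coding genes on chromosome 3, did not move together. Gstm5, a divergent mu gene known from brain and testis, read 8.50, 8.41 and 8.44 in saline, 7.50, 7.56 and 7.70 under TMT and 7.48, 7.89 and 8.23 under TET. Each exposed array lay below saline, and the TET arrays spread widely. Gstm5 fell 1.82-fold under TMT (−0.86, SE 0.16, adjusted p = 0.00235). Its fall under TET (−0.58, SE 0.16, adjusted p = 0.0128) was not kept after cyclic loess (−0.33, adjusted p = 0.115) or repeated quantile normalization (−0.38, adjusted p = 0.0839). Gstm1, the main mu enzyme of mouse liver, read 11.35, 11.20 and 11.18 in saline, 11.65, 11.10 and 11.89 under TMT and 11.64, 12.26 and 11.98 under TET. TET lay above saline, whereas TMT replicate 2 lay below it and the other two above. Gstm1 rose 1.65-fold under TET (0.72, SE 0.20, adjusted p = 0.0135) and did not pass under TMT (0.30, 95% interval −0.15 to 0.75, adjusted p = 0.344).

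Among the dim mu genes, Gstm2 rose 1.56-fold under TMT (0.64, SE 0.13, adjusted p = 0.00375) and 1.4-fold under TET (0.48, SE 0.13, adjusted p = 0.0104). Its saline arrays read 6.06, 5.82 and 5.70 and lay below the TMT arrays (6.41, 6.58 and 6.51) and the TET arrays (6.53, 6.39 and 6.12). Gstm3 passed under TMT at 0.40 (adjusted p = 0.0073) on a probe set of that same kind, and its other probe set was at −0.013. Gstm4 passed under TET at −0.45 (adjusted p = 0.0486), with TET arrays at 5.89, 5.34 and 5.60 that overlapped saline arrays at 6.12, 5.74 and 6.30. That call was lost without saline replicate 1 or 3, TET replicate 2 or TET replicate 3 (−0.44 to −0.31, adjusted p from 0.093 to 0.175). Gstm6 and Gstm7 did not pass with either compound. Mu genes are close in sequence, so their probe sets may share signal. Of the 34 members, 32 had an upstream window in the table, and Gstm5, Gstm7, Gsta3 and Mgst1 each held 1 match to the antioxidant response letters (4 of 44 windows, against 10.2% of all 32851). The Gstm5 window (chr3:107895604-107895853, plus strand, 5′ to 3′) is shown as the one match among members that fell under TMT, with the matched bases in capitals at −42 to −34 from the start.
Gstm5: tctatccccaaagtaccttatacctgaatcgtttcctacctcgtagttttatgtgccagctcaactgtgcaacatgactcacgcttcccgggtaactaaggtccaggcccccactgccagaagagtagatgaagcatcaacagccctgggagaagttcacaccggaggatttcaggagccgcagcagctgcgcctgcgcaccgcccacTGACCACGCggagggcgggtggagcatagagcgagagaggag
The heat shock letters occurred upstream of Gstm6 and Prdx3 (2 of 44 windows, against 6.69% of all). A match describes letters and does not show that a factor binds there.

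Of the transferases of other classes, Gsto1, an omega enzyme that also reduces dehydroascorbate, read 11.25, 11.58 and 11.46 in saline, 10.62, 10.97 and 10.63 under TMT and 11.11, 10.99 and 10.90 under TET. Both exposed groups lay below saline. This probe set, like the brightest of Gstm1, is also one marked as open to related transcripts. Gsto1 fell 1.62-fold under TMT (−0.69, SE 0.13, adjusted p = 0.00197). Its fall under TET (−0.44, SE 0.13, adjusted p = 0.0159) was lost without saline replicate 2 (−0.36, adjusted p = 0.0682) or saline replicate 3 (−0.42, adjusted p = 0.05004), after cyclic loess (−0.22, adjusted p = 0.235) or after repeated quantile normalization (−0.33, adjusted p = 0.0836). Gstp1, the pi enzyme found in most cells, read 9.14, 9.22 and 9.05 in saline, 9.09, 9.35 and 9.13 under TMT and 8.58, 8.40 and 8.60 under TET. The TMT arrays overlapped saline and the TET arrays lay below both. Gstp1 fell 1.53-fold under TET (−0.61, SE 0.10, adjusted p = 0.000751) and was at 0.052 under TMT (95% interval −0.18 to 0.28). Gstz1, the zeta enzyme of tyrosine breakdown, read 7.33, 7.28 and 7.12 in saline, 6.86, 7.19 and 6.75 under TMT and 6.72, 6.23 and 6.81 under TET. TET lay below saline and TMT overlapped it. It fell 1.58-fold under TET (−0.66, SE 0.16, adjusted p = 0.00771) and did not pass under TMT (−0.31, adjusted p = 0.224).

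Gstk1, the kappa enzyme, fell 1.37-fold under TMT (−0.46, SE 0.12, adjusted p = 0.0167), from 8.43, 8.41 and 8.59 to 8.04, 8.05 and 7.98. That call was lost without saline replicate 3 (−0.40, adjusted p = 0.074) or TMT replicate 3 (−0.44, adjusted p = 0.0555). Under TET Gstk1 read 8.32, 8.25 and 7.88 (−0.33, adjusted p = 0.0422), and the call was lost after cyclic loess (−0.054, adjusted p = 0.77), with the replicate number as a block (adjusted p = 0.0628) and without any 1 of the saline arrays or TET replicate 3 (−0.36 to −0.19, adjusted p from 0.0691 to 0.141). Gstp3 passed under TET at 0.33 (adjusted p = 0.0318), at array values of 4.73 to 5.28, and was not kept after cyclic loess (0.15, adjusted p = 0.306) or without saline replicate 1 or 2 or TET replicate 1 or 3 (0.27 to 0.33, adjusted p from 0.0706 to 0.11). The 3 alpha transferases (Gsta2, Gsta3 and Gsta4), enzymes of lipid peroxide and 4-hydroxynonenal handling in liver, and Gsto2 did not pass with either compound in their brightest probe sets. In all, 8 dim members passed in neither comparison with saline, with fold changes from −0.23 to 0.046 under TMT and −0.056 to 0.29 under TET.

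**Figure D3:**
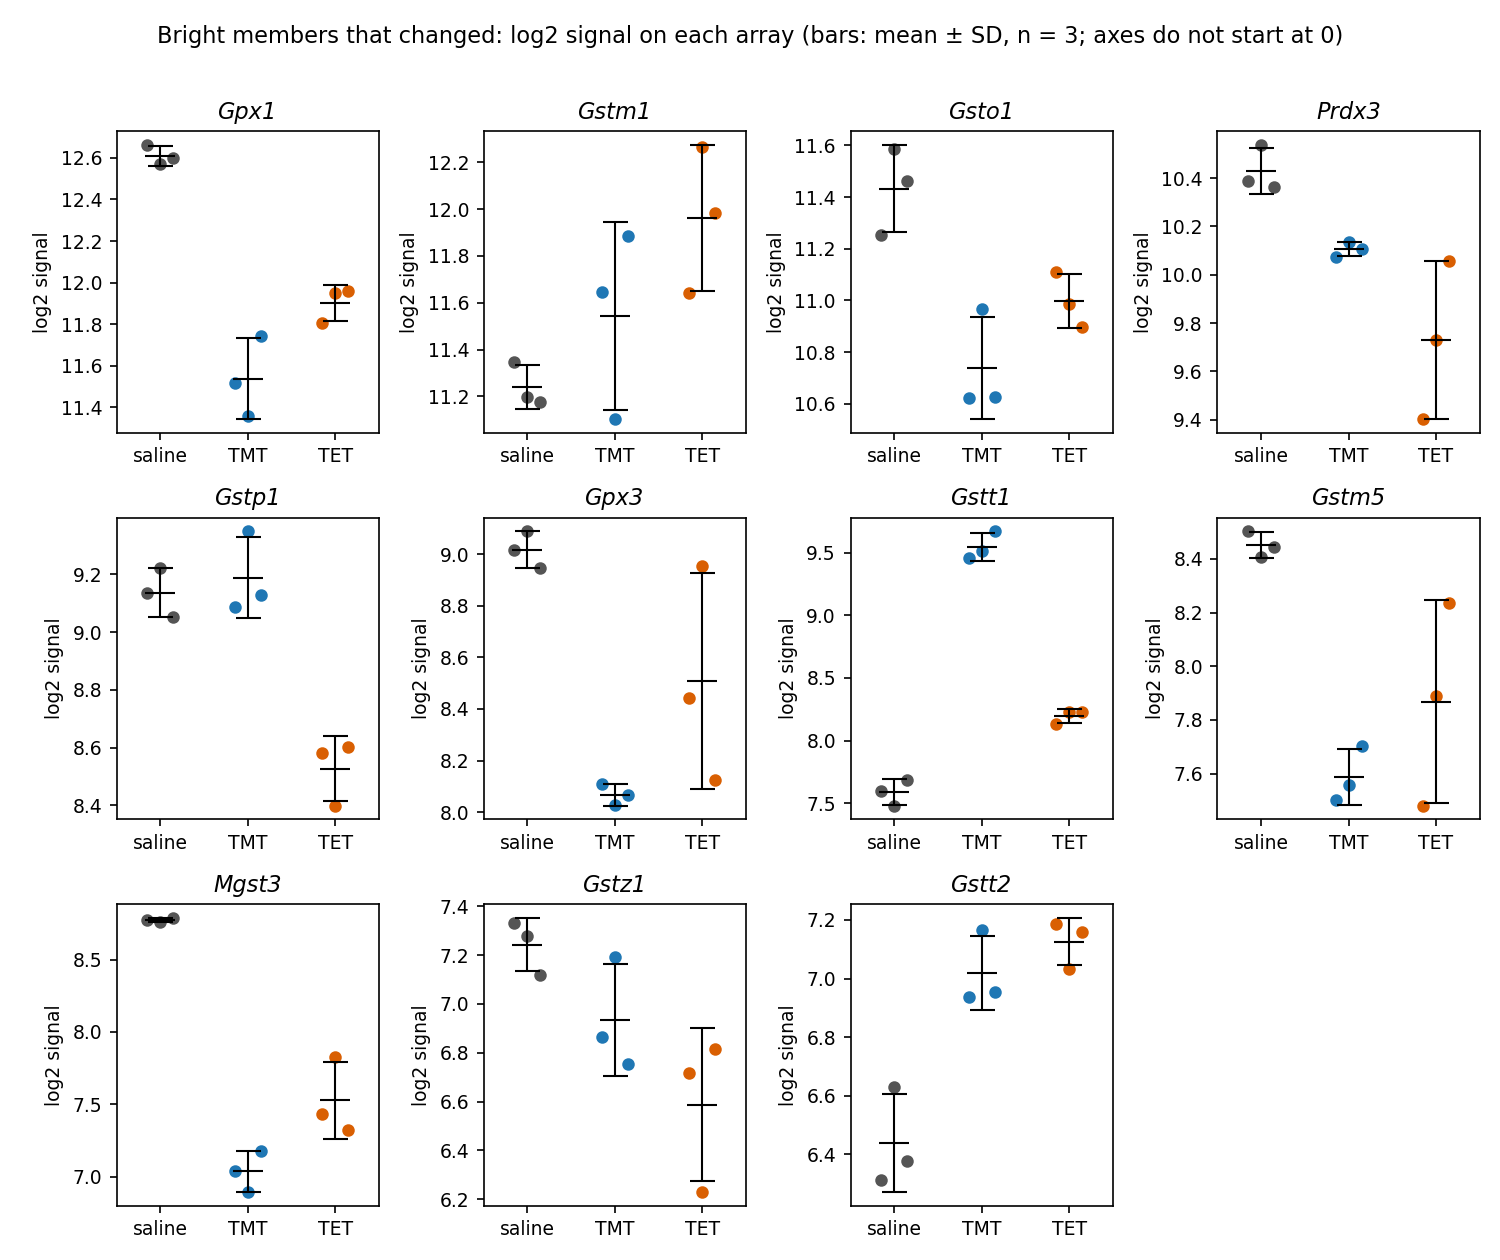
Log2 signal (y axis) of the 11 bright members that passed against saline with a log2 fold change of at least 0.5 in either direction, on each array of the saline, TMT and TET groups (x axis); bars give mean ± SD, n = 3. Gstt1 and Mgst3 show 3 groups that do not overlap, while the TET arrays of Mgst3, Gpx3 and Gstm5 spread more widely than their saline arrays.

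Of the 3 peroxiredoxins covered here, all bright, 1 passed under TMT, upward, and 2 passed under TET, downward, in their brightest probe sets. Prdx1, Prdx5 and Prdx6 were not among the members, so nothing is said of them. Prdx3, the mitochondrial peroxiredoxin, read 10.39, 10.54 and 10.36 in saline, 10.08, 10.13 and 10.11 under TMT and 9.40, 9.73 and 10.06 under TET. Exposed arrays lay below saline, and TET spread widely. Prdx3 fell 1.63-fold under TET (−0.70, SE 0.14, adjusted p = 0.00255) and did not pass under TMT (−0.32, SE 0.14, adjusted p = 0.138). Prdx2, an abundant cytosolic enzyme, read 11.78, 11.69 and 11.79 in saline, 12.04, 11.90 and 12.18 under TMT and 11.22, 11.29 and 11.36 under TET in its brightest probe set. There the groups did not overlap, and the gene passed upward under TMT (0.28, adjusted p = 0.0493) and downward under TET (−0.47, adjusted p = 0.00239). The TMT call was not kept with the replicate block (adjusted p = 0.0593) or without any 1 of the saline arrays, TMT replicate 1 or TMT replicate 3 (0.22 to 0.30, adjusted p from 0.0989 to 0.177). Prdx4, the peroxiredoxin of the endoplasmic reticulum, did not pass against saline (0.23 under TMT, adjusted p = 0.326, and −0.36 under TET, adjusted p = 0.0691).

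The 10 members with several probe sets were followed probe set by probe set, with p-values adjusted over all 34945 probe sets that name 1 gene. Prdx2 had probe sets that went opposite ways under TET. The brighter gave −0.47 (adjusted p = 0.0032) and the other 0.64 (adjusted p = 0.000435), so the direction of Prdx2 under TET is not settled. Under TMT they gave 0.28 (adjusted p = 0.062) and 0.78 (adjusted p = 0.000252). The second probe set of Gpx4 was lower under TMT (−0.42, adjusted p = 0.0383) and under TET (−0.46, adjusted p = 0.0144), unlike the first. All 4 probe sets of Gstm1 were above saline under TET (0.34 to 0.72, each passing) and under TMT (0.30 to 0.52, of which 2 passed). Gsto1 fell in both of its probe sets under both compounds. For Prdx4 under TET, 2 of 4 probe sets passed, both downward (−0.68 and −1.11), while under TMT the adjusted p ran from 0.321 to 0.893. The second, dimmer probe set of Gsta3 was higher under TET (0.52, adjusted p = 0.0127), where the brighter did not pass (0.29, adjusted p = 0.0909), and neither passed under TMT. Those of Gstm7 and Mgst1 did not pass with either compound. The second probe set of Mgst3, at a mean of 4.97, did not pass with either compound (−0.061 under TMT and −0.073 under TET).

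**Figure D4:**
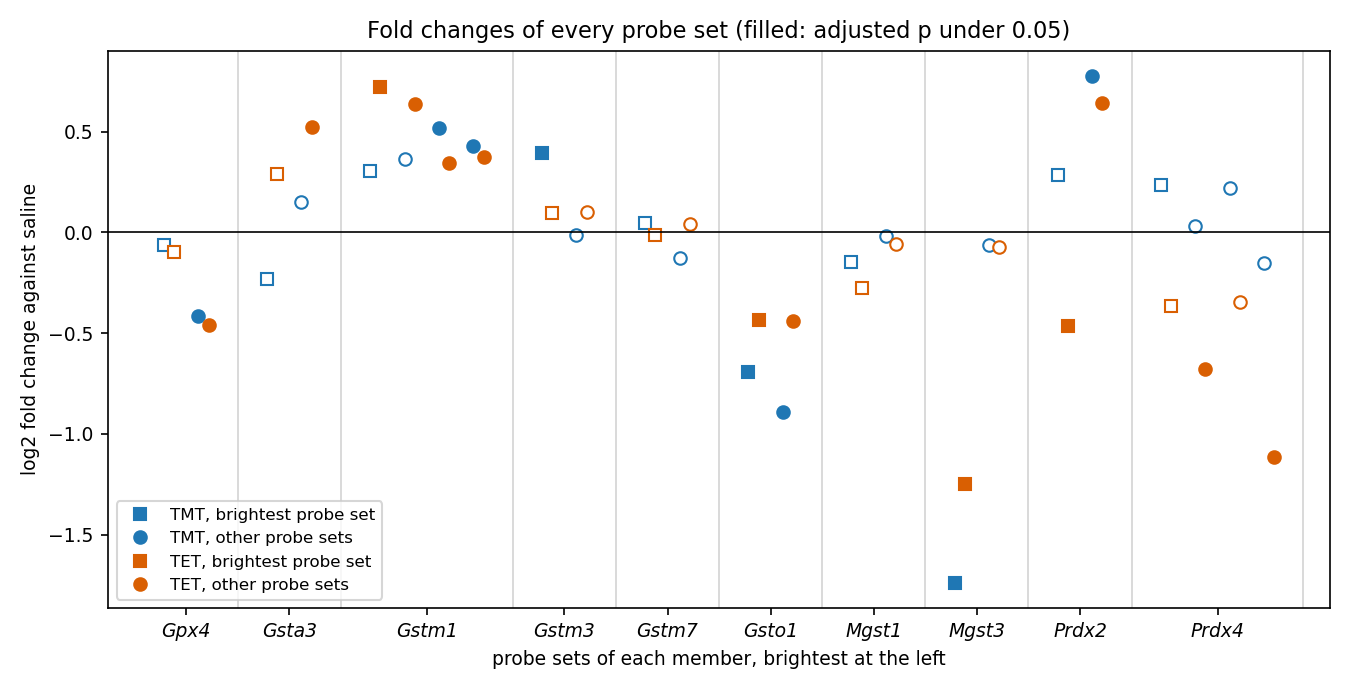
Log2 fold change against saline (y axis) of every probe set of the 10 members that have several, brightest at the left within a member (x axis), for TMT (blue) and TET (orange); squares mark the brightest probe set and filled points passed among all probe sets. The probe sets of Gsto1 and Gstm1 lie on 1 side of 0, while those of Prdx2 lie on both sides under TET.

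TET against TMT tested whether members differed between the exposures, which differ in dose as well as in the alkyl group. In that comparison 8 members were higher under TET and 8 lower, which made 16 of 34 beside 51.8% of all genes (28.1% higher and 23.7% lower). Among bright members 2 were higher and 4 lower, beside 25.1% and 41.5% of bright genes (66.6% in all), and among dim members 6 were higher and 4 lower, beside 31.1% and 5.86% of dim genes (37% in all). The median fold change in this comparison was −0.18 over bright genes and 0.20 over dim genes, and the differences below stand beside these medians. The arrays of the 2 exposures did not overlap for 19 members (57% of all genes). Counting only differences of at least 1.5-fold, 9 members passed (30.5% of all genes), and against saline 8 passed under TMT (17.5%) and 12 under TET (29.6%). Gstt3 was 2.72-fold lower under TET than under TMT (−1.44, SE 0.19, adjusted p = 0.00011), Gstt1 2.54-fold lower (−1.35, SE 0.09, adjusted p = 1.71e-06) and Gstt4 2.31-fold lower (−1.21, SE 0.13, adjusted p = 2.99e-05). Of the theta genes, Gstt2 did not pass (0.11, 95% interval −0.14 to 0.35). Gstp1 was 1.58-fold lower under TET (−0.66, adjusted p = 0.000413), and Prdx4 1.51-fold lower (−0.60, adjusted p = 0.00785). Mgst2 was 1.85-fold higher under TET (0.89, SE 0.19, adjusted p = 0.00284), Gpx7 1.6-fold higher (0.68, adjusted p = 0.000734) and Gpx2 1.44-fold higher (0.52, adjusted p = 0.00907). Mgst3 and Gpx1, which fell against saline, were less reduced under TET (0.49, adjusted p = 0.0108, and 0.36, adjusted p = 0.0177). Leaving out TMT replicate 1 (0.35, adjusted p = 0.0547) or TMT replicate 2 (0.27, adjusted p = 0.0572) ended the Gpx1 call, and the mean over probe sets ended that of Mgst3 (0.24, adjusted p = 0.0503). The others that passed were Prdx2 (−0.75), Gstm4 (−0.64), Gstm3 (−0.30), Gsta3 (0.52), Gsta2 (0.31) and Gpx5 (0.36). Of these, Gstm3 and Gpx5 lost the call under several alternatives, among them array weights (−0.20 and 0.20, adjusted p = 0.106 and 0.147). Prdx2 kept the call under all 17 alternatives other than the fold minimum (−0.82 to −0.44). Its other probe set alone did not pass (−0.13, adjusted p = 0.286 over all probe sets). The other probe set of Gsta3 did not pass either (0.37, adjusted p = 0.0547 over all probe sets). Members such as Gsto1 (95% interval −0.02 to 0.54), Gstm5 (−0.08 to 0.64) and Gstk1 (−0.14 to 0.39) did not pass, and these intervals do not show that the exposures acted alike. After cyclic loess all 3 passed as higher under TET (0.43, 0.51 and 0.37, adjusted p = 0.0288, 0.0212 and 0.0389). Gsto1 also passed in its other probe set, which is not marked as open to related transcripts (0.45, adjusted p = 0.00283), and in the mean over probe sets (0.36, adjusted p = 0.00322). Gpx3 (0.44, adjusted p = 0.0539) and Prdx3 (−0.38, adjusted p = 0.0508) lay close to the threshold without passing. Of 17 alternatives other than the fold minimum, Gpx3 passed in 7 and Prdx3 in 5.

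Genes that supply or regulate these enzymes were described as lists, in which 7 to 15 genes each were bright. Their calls were not repeated after cyclic loess, so a call given without such a value was not checked there. Their counts stand beside 46.2% of bright genes called under TMT (24.1% higher, 22.1% lower, median 0.032) and 64.9% under TET (23.6% higher, 41.3% lower, median −0.19). In the order given here, the share of each list that passed was 50%, 47.1%, 55.6%, 37.5%, 47.1%, 72.7% and 64.7% under TMT. Under TET it was 50%, 64.7%, 22.2%, 37.5%, 70.6%, 63.6% and 70.6%. Nothing particular to a list is read from these shares. Of 12 measured genes of glutathione synthesis and turnover, 4 rose and 2 fell under TMT (median −0.032) and 4 rose and 2 fell under TET (median 0.27). Gsr, encoding glutathione reductase, rose 1.63-fold under TMT (0.70, SE 0.10, adjusted p = 0.000309) and fell 1.78-fold under TET (−0.83, SE 0.10, adjusted p = 5.95e-05). Gss, encoding glutathione synthetase, fell 2.19-fold under TMT (−1.13, adjusted p = 0.000355) and did not pass under TET (0.27). Chac1, encoding an enzyme that degrades glutathione, rose 3.2-fold under TMT and 21.2-fold under TET (1.68 and 4.41, SE 0.19 each), and Slc3a2, a subunit of the cystine importer, rose 1.34-fold and 1.94-fold. Slc7a11, also of the cystine importer, went otherwise. It fell 1.51-fold under TMT (−0.59, adjusted p = 0.00374) and did not pass under TET (0.26, adjusted p = 0.0926). Of 17 thioredoxin and glutaredoxin genes, 5 rose and 3 fell under TMT (median 0.089) and 5 rose and 6 fell under TET (median −0.032). Glrx, encoding glutaredoxin, rose 2.08-fold under TMT (1.05, adjusted p = 9.06e-06) and was lower under TET (−0.32, adjusted p = 0.0106). Srxn1, encoding sulfiredoxin, which restores overoxidised peroxiredoxins, rose 2.16-fold under TET (1.11, adjusted p = 3.92e-05) and did not pass under TMT (0.24). Sesn1, a sestrin gene, rose 4.46-fold and 2.04-fold, and Txndc12, a thioredoxin-like protein of the endoplasmic reticulum, was at 0.76 under TMT and −0.44 under TET, passing in both.

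Of 9 genes of superoxide and hydrogen peroxide enzymes, 3 rose and 2 fell under TMT (median 0.090) and 0 rose and 2 fell under TET (median −0.19; 3 had an unadjusted p under 0.05). Cat, encoding catalase, fell 1.72-fold under TMT (−0.78, adjusted p = 0.000355) and 1.46-fold under TET (−0.55, adjusted p = 0.00207). Ncf4, an NADPH oxidase subunit, rose 1.55-fold under TMT, Ncf1, another subunit, fell 1.32-fold under TET, and Sod1, the cytosolic superoxide dismutase, fell 1.23-fold under TMT. Of 8 genes of NADPH supply, 0 rose and 3 fell under TMT (3 had an unadjusted p under 0.05; median −0.11) and 1 rose and 2 fell under TET (median −0.15). Idh1, the cytosolic isocitrate dehydrogenase that makes NADPH, fell 2.31-fold under TMT and 2.74-fold under TET (−1.21 and −1.45, SE 0.10 each), on a probe set open to related transcripts, as were Gss, Sesn1, Sod1 and Sephs1. Taldo1 of the pentose phosphate pathway fell 1.68-fold under TMT. Under TET, Idh2, the mitochondrial counterpart of Idh1, fell 1.88-fold and Me1, the malic enzyme, rose 1.72-fold.

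Of 17 genes of selenoprotein synthesis and other selenoproteins, 4 rose and 4 fell under TMT (median −0.055) and 3 rose and 9 fell under TET (median −0.28, beside −0.19 over bright genes). Sephs1, a selenophosphate synthetase relative, and Secisbp2, the protein that binds the selenocysteine insertion element, fell 2.09-fold and 2.04-fold under TET and did not pass under TMT. Msrb1, a methionine sulfoxide reductase selenoprotein, rose 2.24-fold under TMT and 2.18-fold under TET, and Selenoh fell 2.21-fold under TMT. Of 11 genes of NRF2 control, 4 rose and 4 fell under TMT (median −0.059) and 5 rose and 2 fell under TET (median 0.12). The NRF2 partner gene Mafg rose 3.64-fold and 4.2-fold, and the target Hmox1, encoding heme oxygenase, 5.54-fold and 6.83-fold. Other genes of the list went otherwise. Nfe2l2, encoding NRF2 itself, rose under TMT (0.36, adjusted p = 0.0198) and fell under TET (−0.64, adjusted p = 0.00039). Nqo1, a dim gene, did not pass under TMT (−0.51, adjusted p = 0.0673) or TET (−0.10, adjusted p = 0.656). Bach1, encoding a repressor of NRF2 targets, fell 2.51-fold under TMT (−1.33, adjusted p = 2.78e-05) and was at −0.15 under TET. Maff, another small MAF partner, fell 2.13-fold under TMT and rose 1.73-fold under TET. Of 17 other glutathione-dependent enzymes and conjugate exporters, 4 rose and 7 fell under TMT (median −0.28) and 2 rose and 10 fell under TET (median −0.44). The exporter gene Abcc3 fell 3.86-fold and 2.37-fold, while Abcc5 rose 2.83-fold and 2.32-fold, under TMT and TET. Ptges, a microsomal prostaglandin E synthase related to the Mgst genes, rose 4.58-fold under TMT and was lower under TET (−0.29, adjusted p = 0.0448). Hpgds, the sigma-class transferase that makes prostaglandin D2, fell 1.53-fold under TMT and rose 3.51-fold under TET.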

How the data were processed

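Gene expression was measured on 9 Affymetrix mouse arrays, 3 per group, from 50 ng RNA amplified by a Nugen Pico kit, per the labels' protocols. The deposited table holds log2 signals, which the authors made with RMA and affy per the submitters' processing notes. No versions are given in the sources used here, nor whether all arrays were processed together, and the log base was taken from the values (2.05 to 14.8). Identical values were shared by 1.44% to 2.11% of probe sets between saline and TET arrays, and by 3.32% to 3.8% within saline. The table was used as deposited.

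Of 45037 probe sets, 34945 named 1 gene in the platform annotation, 932 several and 9160 none; only the first were used. Each gene was represented by the probe set with the highest mean over all 9 arrays. Another 6 probe sets, which name a family member together with other genes, were left out. Symbols were checked against GRCm38.p6, where all 34 matched. A model with 1 mean per group was fitted with limma 3.58.1 in R 4.3.3 (6 residual and 3.99 prior degrees of freedom) and checked on simulated data, p-values being two-sided and adjusted by Benjamini and Hochberg over 18193 genes. Depth has no counterpart in these files; precision is set by how few arrays there are, and an exact permutation test of 3 against 3 cannot go below 0.1. The members and lists were chosen with earlier results of these data known. All members were accounted for. Bright members that passed with a log2 change of at least 0.5 were given with all values, and list genes were named by the smallest adjusted p, up to 4 a list. Nfe2l2, Nqo1 and Slc7a11 were named in addition. Alternatives were leaving out each array, the replicate number as a block, bright genes only, means over probe sets, all probe sets, no probe sets that may bind related transcripts, repeated quantile normalization, median centring, cyclic loess, array weights, trended robust moderation, the 6 arrays of a comparison alone and a 1.5-fold minimum. Same-numbered arrays did not deviate together throughout (correlations from −0.15 to 0.31 over genes), so the numbers were not taken to pair the arrays.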

Additional observations from a re-analysis of the deposited data

How the results depend on the processing

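With each array left out in turn, the members that passed numbered 10 to 12 under TMT, 16 to 22 under TET and 13 to 18 for TET against TMT. Of all genes, 21.8% to 25.7%, 41.4% to 49.7% and 44% to 50.7% were called in those fits. With the replicate number as a block, 11 members passed under TMT (26.7% of all genes), 20 under TET (49.2%) and 16 for TET against TMT (50.1%). Of the 9 arrays, 4 correlated best with their own number in the other groups. Array weights gave 19 members under TMT, with 48.1% of all genes called. The weights of TMT replicates 1, 2 and 3 were 8.13, 0.40 and 0.96, so that setting leaned on TMT replicate 1. With a minimum of 1.5-fold, 12 passed under TET (29.6% of all genes) and 9 for TET against TMT (30.5%). In the fit of bright genes alone, 8 of 16 members passed for TET against TMT, beside 68.9% of all bright genes. After cyclic loess 15 members passed under TET, beside 42.8% of all genes, and after repeated quantile normalization 15, beside 44%. Of the calls under TMT, TET and TET against TMT among the members described singly, 9 of 12, 13 of 21 and 10 of 14 were kept under every alternative but the fold minimum. Directions turned under TET for Prdx2 with the mean over probe sets (0.088), and for Gstm3 without probe sets that may bind related transcripts (−0.013 under TMT and 0.11 for TET against TMT). The other turns concerned changes that did not pass. These were Gstm3 under TET after repeated quantile normalization (−0.012) and cyclic loess (−0.059), Gpx4 after cyclic loess (0.070 under TET, 0.087 for TET against TMT) and repeated quantile normalization (1.1e-04 for TET against TMT), and Mgst1 for TET against TMT after cyclic loess (0.088). Array weights turned Gpx5 (0.099), Gstp1 (−0.021), Gstp3 (−0.078) and Gstt3 (−0.12) under TMT. With arrays left out, the TMT values ran from −0.078 to 0.16 for Gstt3, from −0.12 to 0.085 for Gpx5, from −0.18 to 0.0079 for Gpx7, from −0.028 to 0.10 for Gstp1 and from −0.0064 to 0.13 for Gstp3.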
